A study of Mus musculus with 965 samples.

Results

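The collagen alpha chain genes of mouse embryoid bodies are described here. They were taken by symbol, as every gene of the count table named Col, a number, the letter a and a number, which gave 44 of 36849 genes. In embryoid bodies (EBs), embryonic stem cells (ESCs) aggregate in 3 dimensions after leukemia inhibitory factor is withdrawn, here in ultra-low attachment plates, and begin to form the germ layers. Single cells from EBs of E14 mouse ESCs were sequenced as full-length RNA at days 3, 6 and 8 to ask what the absence of a de novo DNA methyltransferase does to differentiation. The 3AKO cells carried a homozygous Dnmt3a knockout (clones 3A2 and 3A38) and the 3BKO cells a homozygous Dnmt3b knockout (clones 3B126 and 3B77), and both were set against 1 wild-type (WT) culture. At each day 50 EBs of a clone were pooled, so that the 965 cells came from 14 libraries of clone and day, and day 8 of 3A2 was not analysed here. Where a pair of values is given for a knockout, it is that of 3A2 and 3A38 or of 3B126 and 3B77, in this order. The labels put all 3AKO cells in batch 1, 3B126 and WT in batch 2, and 3B77 in batch 3. Outside the comparison of 3B126 with WT, batch and genotype cannot be told apart.

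Collagens are extracellular matrix proteins built from 3 alpha chains wound into a triple helix, in which glycine recurs at a fixed spacing along each chain. Fibrillar collagens, such as types I, II, III and V, assemble into the banded fibrils that mesenchymal cells lay down in connective tissue. Type IV collagen forms the sheet-like network of basement membranes, with types XV and XVIII as associated chains that release small fragments from their ends. Further classes coat fibrils, form beaded filaments or short-chain networks, or stay in the cell membrane. By these textbook classes the 44 genes comprised 11 fibrillar, 8 basement membrane, 6 beaded filament, 9 fibril-associated, 3 short-chain network and 4 transmembrane chains, and 3 others.

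The difference between the main classes is written in their exons, and an exon of 6 chains is therefore shown, in GRCm38 coordinates from the GENCODE M21 annotation. Capitals mark the GG that opens a glycine codon (GGN) wherever such codons recur triplet after triplet for at least 4 triplets in a row along the coding sequence.

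Col1a1, chr11:94939904-94939957, plus strand, coding exon 8: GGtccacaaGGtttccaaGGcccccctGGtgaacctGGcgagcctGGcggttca
Col1a2, chr6:4515481-4515534, plus strand, coding exon 8: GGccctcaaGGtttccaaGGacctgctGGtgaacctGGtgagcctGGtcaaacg
Col3a1, chr1:45325360-45325413, plus strand, coding exon 6: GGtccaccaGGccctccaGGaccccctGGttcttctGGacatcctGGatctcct
Col5a2, chr1:45422386-45422439, minus strand, coding exon 10: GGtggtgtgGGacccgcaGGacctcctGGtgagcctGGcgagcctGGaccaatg
Col4a1, chr8:11244486-11244569, minus strand, coding exon 9: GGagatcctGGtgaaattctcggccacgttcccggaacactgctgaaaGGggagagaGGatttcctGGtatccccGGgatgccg
Col4a2, chr8:11406813-11406854, plus strand, coding exon 11: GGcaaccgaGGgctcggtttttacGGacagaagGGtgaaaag

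The 4 fibrillar exons are each 54 bases long, hold 6 triplets and show a glycine codon at the start of every triplet. In the exons of Col4a1 and Col4a2 the repeat stops and starts again. Over whole coding sequences, the longest unbroken run of GGN triplets in the 11 fibrillar chains was at least 216 triplets (median 338), with 1 to 3 breaks between runs. Col1a1 and Col1a2 had runs of 338 and 339 triplets, and that of Col3a1 was longer still. In the 8 basement membrane chains the longest run was 30 to 66 triplets (median 41), with 11 to 26 breaks. Coding exons of exactly 54 bases made up 41.2% to 55.0% of the coding exons of a fibrillar chain and 2.13% to 7.32% of those of a basement membrane chain.

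**Figure D1:**
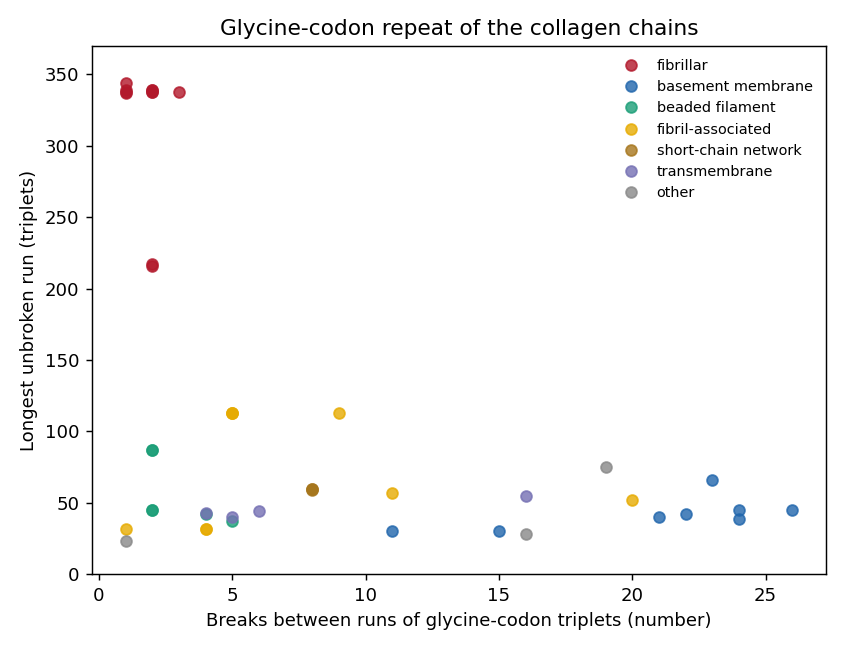
Longest unbroken run of glycine (GGN) triplets (y axis, triplets) against the number of breaks between runs (x axis) in the coding sequence of each of the 44 chains, 1 point per gene, coloured by class. Fibrillar chains lie at 216 triplets or more with 1 to 3 breaks, apart from the basement membrane chains at 30 to 66 triplets with 11 to 26 breaks.

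Several chains are neighbours. Col3a1 (chr1:45311538-45349706, plus strand) and Col5a2 (chr1:45374321-45503282, minus strand) lie tail to tail. Col4a5 (chrX:141475385-141689234, plus strand) and Col4a6 (chrX:141165403-141474076, minus strand) lie head to head, as do Col4a1 and Col4a2. The start regions of Col4a1 and Col4a2 are shown because they overlap, from 250 bases before to 50 bases after the start in RefSeq's annotation of GRCm38.p6. Capitals mark matches on either strand to the letters TATAAA of a TATA box, those of a CCAAT box, or the letters GGGCGG of a GC box.

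Col4a1, chr8:11312777-11313076, minus strand: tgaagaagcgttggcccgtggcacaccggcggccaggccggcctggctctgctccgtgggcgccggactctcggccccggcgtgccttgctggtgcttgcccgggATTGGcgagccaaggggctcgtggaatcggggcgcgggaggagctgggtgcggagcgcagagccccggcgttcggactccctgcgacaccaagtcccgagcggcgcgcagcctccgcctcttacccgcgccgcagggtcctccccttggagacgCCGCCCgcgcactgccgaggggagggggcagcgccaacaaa
Col4a2, chr8:11312555-11312854, plus strand: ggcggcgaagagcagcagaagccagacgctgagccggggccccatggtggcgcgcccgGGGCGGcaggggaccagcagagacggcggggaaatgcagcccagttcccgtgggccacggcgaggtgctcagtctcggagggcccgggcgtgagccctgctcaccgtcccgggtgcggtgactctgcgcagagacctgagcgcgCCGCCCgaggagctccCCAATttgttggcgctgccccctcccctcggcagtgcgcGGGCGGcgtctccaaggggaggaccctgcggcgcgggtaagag

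The windows share 78 bases. Col4a1 holds 1 CCAAT box and 1 GC box, Col4a2 holds 1 CCAAT box and 3 GC boxes, and neither holds a TATA box. Among 38 such windows of 35 collagen genes, the TATA box was in 13.2%, the CCAAT box in 34.2% and the GC box in 60.5%, against 13.6%, 37.4% and 35.7% of all 32851 windows. A match describes the letters and not a site that a factor uses.

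The libraries held 40 to 89 cells and between 9810248 and 44529830 reads, and a cell held 50096 to 3442378 reads (median 255315). Levels are CPM, counts scaled to 1000000 reads of the library, unless stated otherwise. Dnmt3a was at 0.898 to 24.1 CPM in the 3AKO libraries, and at each day below the WT library. Dnmt3b had 17.8 and 35.3 CPM in 3B126 and 3B77 at day 3, against 239 CPM in WT, and at 4.24 and 5.50 CPM at day 8, against 4.22 CPM in WT, so that at day 8 it did not check the label. Y-linked transcripts, counted as a check for mixed-up cells, set some libraries against their labels. Cells with at least 3 reads of Ddx3y, Eif2s3y, Uty and Kdm5d numbered 0 of 79 and 0 of 71 in 3B77 at days 3 and 6 but 11 of 40 in the library labelled 3B77 day 8. For WT they numbered 23 of 74 at day 3, 36 of 67 at day 6, 3 of 21 on plate C343 and 0 of 68 on plate C344, the plates that make up WT day 8. In 3B126 they numbered 0 of 73, 0 of 58 and 0 of 51 at days 3, 6 and 8. Where leaving out plate C344 and the library labelled 3B77 day 8 made or ended a call, turned a direction or moved a value clearly, the value without them is given too.

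Collagen transcripts were rare. The 44 chains took 121293 reads, 0.0324% of all reads, and a chain had between 4 reads (Col28a1) and 48321 reads (Col3a1) over all cells, with 12 chains under 100 reads. The filter on low counts kept 40 chains. Col5a3, Col11a2, Col6a4 and Col28a1 did not pass and were not tested. Libraries of day 3 held few collagen reads beyond Col18a1, and the highest levels were those of fibrillar chains at day 8.

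**Figure D2:**
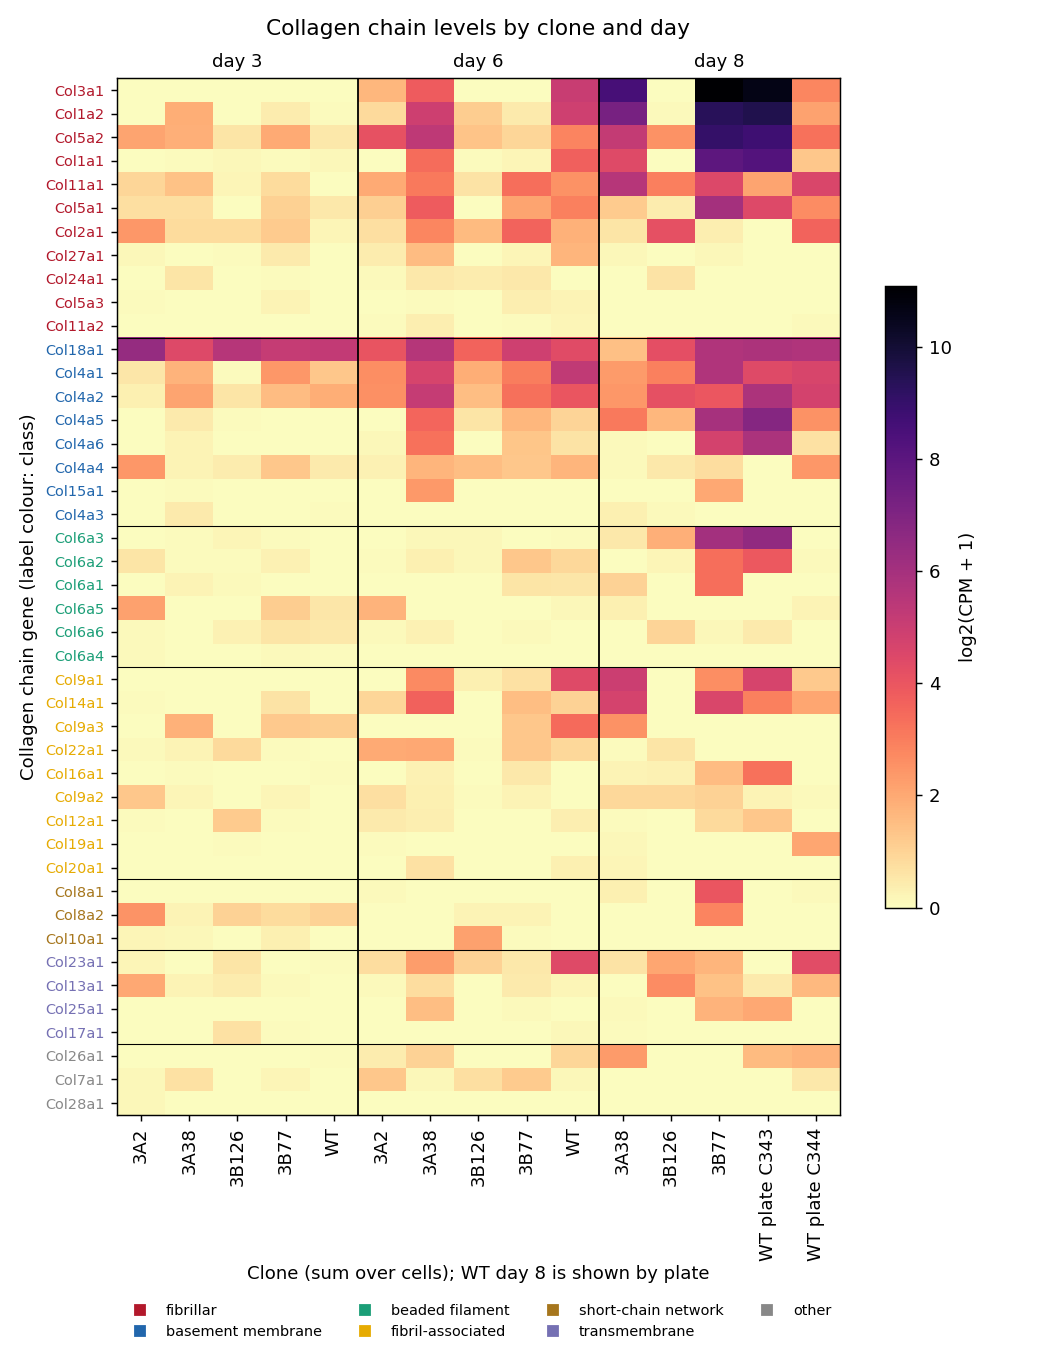
Heat map of log2(CPM + 1) of the 44 chains (rows, grouped by class) in the libraries of each clone at days 3, 6 and 8 (columns), with WT day 8 split into plates C343 and C344 and no error shown. Col18a1 is the darkest row at day 3, and at day 8 Col3a1 and Col1a2 are the darkest in 3A38, the library labelled 3B77 and plate C343, but not in 3B126 or plate C344.

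Summed over the 11 fibrillar chains, levels at day 3 were 9.24 and 8.87 CPM in the 3AKO clones, 1.55 and 7.02 CPM in the 3BKO clones, and 1.11 CPM in WT. At day 6 they were 24.6 and 120 CPM in the 3AKO clones, 5.72 and 26.4 CPM in the 3BKO clones, and 95.8 CPM in WT. At day 8 they were 627 CPM in 3A38, 29.7 CPM in 3B126, 3705 CPM in the library labelled 3B77, and 1028 CPM in WT, where plate C343 had 3106 CPM and plate C344 59.1 CPM. Every clone was higher at day 6 than at day 3, those with day 8 cells were highest at day 8, and 3B126 was the lowest clone at days 6 and 8. In such sums fewer cells of a type and less RNA per cell cannot be told apart, so the values per cell are given further on.

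The 8 basement membrane chains changed less. Their summed levels were 88.9 and 27.8 CPM in the 3AKO clones, 45.4 and 41.4 CPM in the 3BKO clones, and 40.6 CPM in WT at day 3. At day 6 they were 26.1 and 131 CPM in the 3AKO clones, 18.0 and 49.8 CPM in the 3BKO clones, and 76.4 CPM in WT. At day 8 they were 18.0 CPM in 3A38, 44.04 CPM in 3B126, 207 CPM in the library labelled 3B77, and 170 CPM in WT. The days overlapped, and 3A38 was higher at day 6 than at either other day.

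The ratio of fibrillar to basement membrane levels, log2((fibrillar CPM + 1) / (basement membrane CPM + 1)), is not divided by transcript length, so only its change between days is read. At day 3 it averaged −3.11 ± 1.18 (SD, n = 5), at day 6 −0.45 ± 0.73 (n = 5) and at day 8 2.81 ± 2.46 (n = 4). At day 8 it was 5.05 in 3A38, −0.55 in 3B126, 4.15 in the library labelled 3B77 and 2.59 in WT, where it was 3.38 on plate C343 and −0.88 on plate C344. The highest day 3 value was −1.54, so that every day 8 library lay above every day 3 library, and 3B126 stood apart from the other day 8 libraries. The mean at day 8 was higher than that at day 3 by 5.92, and by 5.74 without plate C344 and the library labelled 3B77 day 8. With only type IV chains in the denominator it was 3.24. As a score over chains it was given no test.

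**Figure D3:**
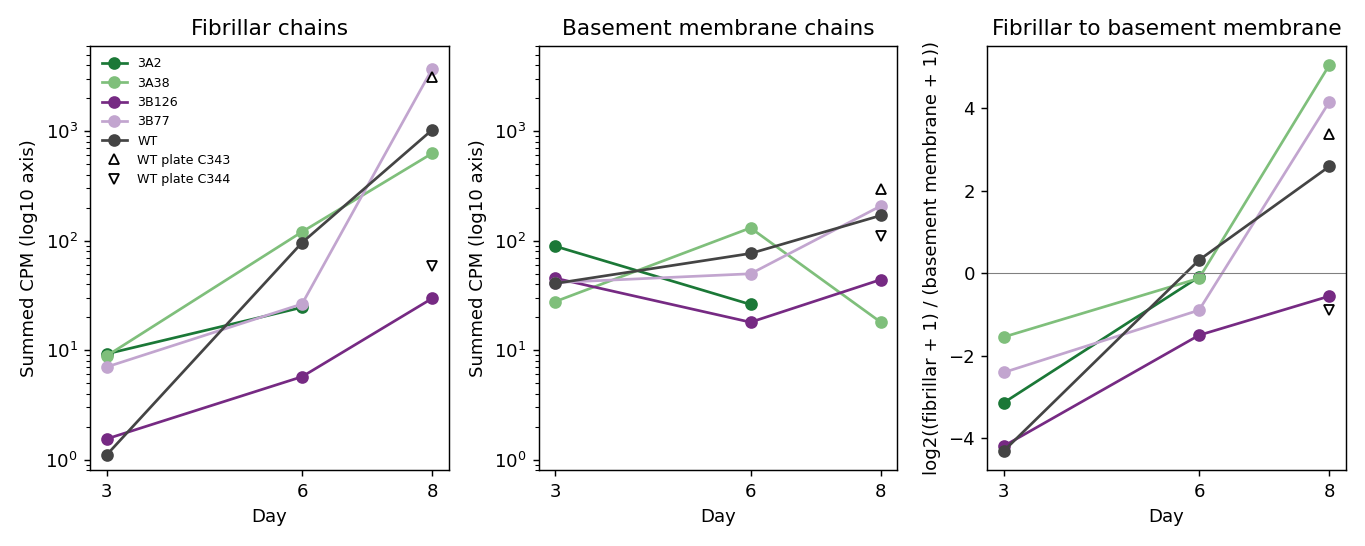
Summed CPM of the fibrillar chains and of the basement membrane chains (log10 axes) and the log2 ratio of the 2 sums, against day (x axis), 1 line per clone without error bars, with the WT plates C343 and C344 at day 8 as triangles. The fibrillar sums reach 627 to 3705 CPM at day 8 in all clones but 3B126 (29.7 CPM), whereas the basement membrane sums of the clones stay between 18.0 and 207 CPM at all days.

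Col3a1, the chain of type III collagen, which forms homotrimers in pliable tissues, had no read in any of the 5 day 3 libraries. At day 6 it had 2.15 and 13.5 CPM in the 3AKO clones, 0 CPM in both 3BKO clones and 32.3 CPM in WT. By day 8 it had 377 CPM in 3A38, 0 CPM in 3B126, 2188 CPM in the library labelled 3B77 and 516 CPM in WT (1611 CPM on plate C343 and 6.02 CPM on plate C344). The clones thus split at day 8, with 3B126 still at 0. The day 8 mean of 770.5 ± 970.1 CPM (SD, n = 4) was at least 7550-fold higher than a floor of 3 reads per day 3 library (0.102 CPM), and the day 6 mean of 9.58 ± 13.9 CPM (n = 5) at least 93.9-fold higher. For the day 8 median of 447 CPM the bound was 4379-fold. It was 2919-fold for the mean of the 3 libraries other than that labelled 3B77 (298 ± 267 CPM), and 6493-fold where plate C343 alone also stood for WT. The edgeR fold change of such a gene depends on the prior count, and its adjusted p for day 8 against day 3 was 0.308. Fitted with the clone as a block, since each clone was sampled at each of its days, the adjusted p was 1.67e-06. 3B126 had no Col3a1 read at any day, so it did not count against the rise in that fit. The block p thus does not measure agreement between the clones.

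Col1a1 and Col1a2, which together form type I collagen, the main fibril of most connective tissue, were measured in most of the same libraries. Col1a1 was at 0 to 0.107 CPM at day 3. At day 6 it had 0 and 9.65 CPM in the 3AKO clones, 0.0593 and 0.141 CPM in the 3BKO clones, and 12.2 CPM in WT. The day 8 values were 20.2 CPM in 3A38, 0 CPM in 3B126, 249 CPM in the library labelled 3B77 and 94.4 CPM in WT. It was thus high in the libraries that were high in Col3a1 and near 0 in the rest. Col1a2 had 0 and 2.68 CPM in the 3AKO clones, 0 and 0.344 CPM in the 3BKO clones, and 0.0357 CPM in WT at day 3. Those of day 6 were 0.785 and 29.4 CPM in the 3AKO clones, 1.19 and 0.376 CPM in the 3BKO clones, and 28.6 CPM in WT. Those of day 8 were 147 CPM in 3A38, 0.0696 CPM in 3B126, 655 CPM in the library labelled 3B77 and 240 CPM in WT. The groups of day 8 and day 3 overlapped through 3B126 for both chains. Their log2 fold changes for day 8 against day 3 were 9.50 (SE 3.11, adjusted p = 0.200) and 9.83 (SE 3.42, adjusted p = 0.236), and neither was called. When plate C344 and the library labelled 3B77 day 8 were left out they were 5.38 and 6.45, and again neither was called.

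Among the chains that nucleate fibrils and limit their width, Col5a2 had 3.31 and 2.63 CPM in the 3AKO clones, 0.516 and 2.90 CPM in the 3BKO clones, and 0.428 CPM in WT at day 3. Day 6 gave 16.4 and 38.5 CPM in the 3AKO clones, 1.57 and 0.894 CPM in the 3BKO clones, and 6.22 CPM in WT. Day 8 gave 35.7 CPM in 3A38, 4.73 CPM in 3B126, 527 CPM in the library labelled 3B77 and 143 CPM in WT. All day 8 libraries lay above all day 3 libraries, with 3B126 nearest to them. Its log2 fold change was 6.17 (SE 1.27, adjusted p = 0.0519). It did not pass the threshold, although it did in 7 of 13 alternative fits. Its partner Col5a1 was at 0 to 1.11 CPM at day 3. It had 1.16 and 13.3 CPM in the 3AKO clones, 0.0296 and 3.34 CPM in the 3BKO clones, and 6.66 CPM in WT at day 6, and 1.30, 0.348, 63.5 and 10.1 CPM in 3A38, 3B126, the library labelled 3B77 and WT at day 8. The ranges of days 8 and 3 overlap through 3B126, and 3A38 was higher at day 6 than at day 8. Its log2 fold change for day 8 against day 3 was 3.67 (SE 1.66, adjusted p = 0.297), and 1.95 without plate C344 and the library labelled 3B77 day 8.

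Col11a1, a chain of the thin fibrils of cartilage that is also made outside it, was the only chain that edgeR called in any of the 9 contrasts. It had 0.909 and 1.63 CPM in the 3AKO clones, 0.161 and 0.725 CPM in the 3BKO clones, and 0 CPM in WT at day 3. By day 6 it had 2.91 and 7.45 CPM in the 3AKO clones, 0.563 and 9.36 CPM in the 3BKO clones, and 4.75 CPM in WT. By day 8 the level was 45.6 CPM in 3A38, 6.89 CPM in 3B126, 21.1 CPM in the library labelled 3B77 and 16.5 CPM in WT, where plate C343 had 3.27 CPM and plate C344 22.7 CPM. Every clone was higher at day 8 than at the earlier days it had, and the ranges of days 8 and 3 did not overlap. Unlike Col3a1, it was present in 3B126 and higher on plate C344 than on plate C343. The log2 fold change for day 8 against day 3 was 7.19 (SE 1.25, adjusted p = 0.0212 by edgeR's quasi-likelihood test). Because WT had no read at day 3 the size of this value depends on the prior count, and without the WT libraries it was 5.08 (SE 0.990, adjusted p = 0.0424). Each day 8 value rested on few cells, in that 1 cell held 78.4% of the Col11a1 reads of 3A38, 39.4% of 3B126, 75.9% of the library labelled 3B77 and 52.8% of WT.

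Col2a1, the main chain of cartilage fibrils and also made in the early neural plate and notochord, did not follow the other fibrillar chains. At day 3 it had 4.26 and 0.746 CPM in the 3AKO clones, 0.741 and 1.30 CPM in the 3BKO clones, and 0.143 CPM in WT. At day 6 it had 0.640 and 5.91 CPM in the 3AKO clones, 1.99 and 11.4 CPM in the 3BKO clones, and 2.50 CPM in WT. The day 8 libraries had 0.494 CPM in 3A38, 17.1 CPM in 3B126, 0.306 CPM in the library labelled 3B77 and 7.81 CPM in WT, with 0 CPM on plate C343 and 11.5 CPM on plate C344. At day 8 it was thus highest in 3B126, which had no Col3a1, and lowest in the library labelled 3B77, which had most Col3a1, and the days overlapped (log2 fold change 1.84, SE 1.22, adjusted p = 0.519). The direction turned to −1.26 without plate C344 and the library labelled 3B77 day 8. The remaining fibrillar chains, Col5a3, Col11a2, Col24a1 and Col27a1, were at no more than 2.25 CPM in any library.

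Col18a1, the basement membrane chain from which endostatin is released, was the most abundant chain at day 3, with 83.9 and 21.0 CPM in the 3AKO clones, 44.5 and 33.8 CPM in the 3BKO clones, and 36.1 CPM in WT. Its day 6 level was 15.7 and 47.2 CPM in the 3AKO clones, 11.1 and 28.6 CPM in the 3BKO clones, and 19.5 CPM in WT. Its day 8 level was 1.77 CPM in 3A38, 17.6 CPM in 3B126, 50.9 CPM in the library labelled 3B77 and 51.7 CPM in WT. The days overlapped, and 3A38 at day 8 was far below the rest. Per kilobase of exon, the scale on which chains can be compared, it led all chains in all 5 day 3 libraries (2.99 to 11.95 CPM per kb). At day 8 Col3a1 led in 3A38 (38.4 CPM per kb), the library labelled 3B77 (222.9 CPM per kb) and WT (52.6 CPM per kb). Without 1 cell of 3A38, described below, Col3a1 was at 117 CPM and Col1a2 at 153 CPM there. With exons of 9816 and 12426 bases, Col3a1 then no longer led in that library. In 3B126 at day 8, Col4a2, Col18a1 and Col2a1 led with 2.60, 2.51 and 1.85 CPM per kb, and on plate C344 Col18a1 led with 7.22 CPM per kb. The log2 fold change of Col18a1 for day 8 against day 3 was −1.91 (SE 0.657, adjusted p = 0.161).

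Col4a1 and Col4a2 form the type IV collagen found in nearly all basement membranes. Col4a1 had 0.437 and 2.38 CPM in the 3AKO clones, 0.0322 and 4.28 CPM in the 3BKO clones, and 1.39 CPM in WT at day 3. Levels at day 6 were 5.12 and 23.9 CPM in the 3AKO clones, 2.67 and 7.01 CPM in the 3BKO clones, and 37.97 CPM in WT. Levels at day 8 were 3.997 CPM in 3A38, 6.61 CPM in 3B126, 51.1 CPM in the library labelled 3B77 and 22.6 CPM in WT. Every clone was higher at day 6 than at day 3, and 3A38 and WT were then lower at day 8 than at day 6. Col4a2 was at 0.255 to 3.23 CPM at day 3. At day 6 it had 4.97 and 33.8 CPM in the 3AKO clones, 1.84 and 9.08 CPM in the 3BKO clones, and 15.1 CPM in WT, and at day 8 at 4.31, 17.2, 14.8 and 34.7 CPM in 3A38, 3B126, the library labelled 3B77 and WT. The ranges of day 8 and day 3 did not overlap for Col4a2. Their log2 fold changes for day 8 against day 3 were 2.89 (SE 1.06, adjusted p = 0.187) and 2.62 (SE 0.903, adjusted p = 0.161), and neither was called.

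Col4a5 and Col4a6, X-linked chains that form a type IV network in kidney and smooth muscle, were nearly absent at day 3, at no more than 0.359 and 0.166 CPM. At day 6 Col4a5 had 0 and 10.75 CPM in the 3AKO clones, 0.504 and 2.16 CPM in the 3BKO clones, and 0.980 CPM in WT. Col4a6 had 0.116 and 8.55 CPM in the 3AKO clones, 0 and 1.51 CPM in the 3BKO clones, and 0.539 CPM in WT at that day. Both were thus highest in 3A38 at day 6. At day 8 Col4a5 was at 7.55 CPM in 3A38, 2.16 CPM in 3B126, 60.6 CPM in the library labelled 3B77 and 39.4 CPM in WT, where plate C343 had 114 CPM and plate C344 4.83 CPM. Col4a6 was at 0.0674, 0, 26.2 and 18.5 CPM in the same libraries. Like the type I and III chains, both were higher on plate C343 than on plate C344, while 3A38 had less of both than at day 6. For Col4a5 the log2 fold change for day 8 against day 3 was 9.40 (SE 2.48, adjusted p = 0.101), and with the clone as a block it was 8.75 (adjusted p = 0.0116). Col4a3 and Col4a4, the further chains of the kidney's filtration barrier, stayed at no more than 4.33 CPM. Col15a1 was at 4.19 CPM in 3A38 at day 6 and at 3.06 CPM in that labelled 3B77 day 8, each from 1 cell.

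Of the other classes, Col6a3, which joins Col6a1 and Col6a2 in the beaded filaments around cells, was at no more than 0.161 CPM at day 3 and 0.119 CPM at day 6. At day 8 it was at 0.427 CPM in 3A38, 2.57 CPM in 3B126, 65.3 CPM in the library labelled 3B77 and 28.6 CPM in WT (90.0 CPM on plate C343 and 0 CPM on plate C344). All day 8 libraries lay above all earlier ones, though in 3A38 and 3B126 Col6a3 rested on few cells. It had reads in 1 of 72 cells of 3A38 and in 2 of 51 cells of 3B126, where 1 cell held 89.2% of them. Its log2 fold change for day 8 against day 3 was 7.91 (SE 1.79, adjusted p = 0.0511), which did not pass the threshold, and for day 8 against day 6 it was 6.94 (SE 1.63, adjusted p = 0.509). Col6a1 and Col6a2 were at no more than 9.17 and 9.28 CPM, each highest in the library labelled 3B77 day 8.

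The fibril-associated chains sit on the surface of fibrils and link them to other matrix. Col9a1, of the cartilage type, had no read at day 3. At day 6 it had 0 and 5.56 CPM in the 3AKO clones, 0.267 and 0.612 CPM in the 3BKO clones, and 20.4 CPM in WT. It was at 29.9 CPM in 3A38, 0 CPM in 3B126, 5.10 CPM in the library labelled 3B77 and 8.62 CPM in WT at day 8, so that WT had less of it at day 8 than at day 6. Col14a1, which coats type I fibrils, was at no more than 0.534 CPM at day 3 and at 24.9, 0, 22.6 and 4.28 CPM in the same day 8 libraries. Neither had a read in 3B126 at day 8, as for Col3a1. With the clone as a block both were called for day 8 against day 3 (adjusted p = 0.0266 and 0.0290), whereas without it they were not (adjusted p = 0.1098 and 0.145). Col14a1 had no read in 3B126 at any day, so that clone did not count in its block fit. Col9a3, a partner of Col9a1, had 0.0291 and 0 CPM in the 3AKO clones, 0.0296 and 1.41 CPM in the 3BKO clones, and 9.75 CPM, its highest level, in WT at day 6. At day 8 it was at 4.72 CPM in 3A38 and had no read in the other libraries.

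The short-chain and transmembrane chains were low in most libraries. Col8a1, of the hexagonal network under endothelia, was at no more than 0.270 CPM except in the library labelled 3B77 day 8, where it was at 15.2 CPM. Its partner Col8a2 was at 4.66 CPM in 3A2 at day 3 and reached 6.22 CPM in the library labelled 3B77 day 8. Col23a1, a transmembrane chain, had 0.669 and 3.88 CPM in the 3AKO clones, 1.01 and 0.423 CPM in the 3BKO clones, and 19.9 CPM in WT at day 6. At day 8 it was at 0.539 CPM in 3A38, 3.13 CPM in 3B126, 2.24 CPM in the library labelled 3B77 and 13.0 CPM in WT, with all of the WT reads on plate C344. WT was thus its highest clone at both days. Col13a1, another one, was at 5.29 CPM in 3B126 at day 8 and 3.06 CPM in 3A2 at day 3. These values came from few cells and had no common order of clones.

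For day 8 against day 3, 1 of the 40 chains tested was called (Col11a1, higher), beside 0.822% of all 24083 genes. With the clone as a block, 5 chains were called higher (Col3a1, Col11a1, Col4a5, Col9a1 and Col14a1), beside 1.64% of all genes. In that fit 3B126 did not count for Col3a1 or Col14a1, of which it had no read. When plate C344 and the library labelled 3B77 day 8 were left out, 3 chains were called higher, beside 3.36% of all genes. These were Col11a1 (log2 fold change 6.16), Col5a2 (4.87, adjusted p = 0.00746) and Col6a3 (7.31, adjusted p = 0.0230). An unadjusted p under 0.05 was reached by 18 of 40 chains, against 16.3% of all genes, but by 9 of 38 chains, against 18.6%, when plate C344 and the library labelled 3B77 day 8 were left out, and by 10 of 39 chains, against 19.3%, without clone 3B77. The log2 fold change was above 0 for 72.5% of the chains and 48.4% of all genes, with medians of 2.80 and −0.01. Without those libraries it was above 0 for 65.8% of the chains and 37.3% of all genes, with medians of 1.29 and −0.59. By class, the median was 6.17 for the fibrillar chains (8 of 9 above 0), 2.19 for the basement membrane chains (6 of 8), 2.87 for the beaded filament chains (3 of 5), 2.72 for the fibril-associated chains (7 of 9) and −3.16 for the short-chain network chains (1 of 3). Without those libraries the median was 4.87 for the fibrillar (7 of 9), 1.25 for the basement membrane (5 of 8), 0.09 for the beaded filament (3 of 5) and 2.39 for the fibril-associated chains (6 of 8). These are counts over chains that passed the filter and carry no test. The p-values measure the spread between clones, each of which was sampled once per day, and WT and 3AKO at day 8 had 1 library each and were assumed to vary like the others.

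**Figure D4:**
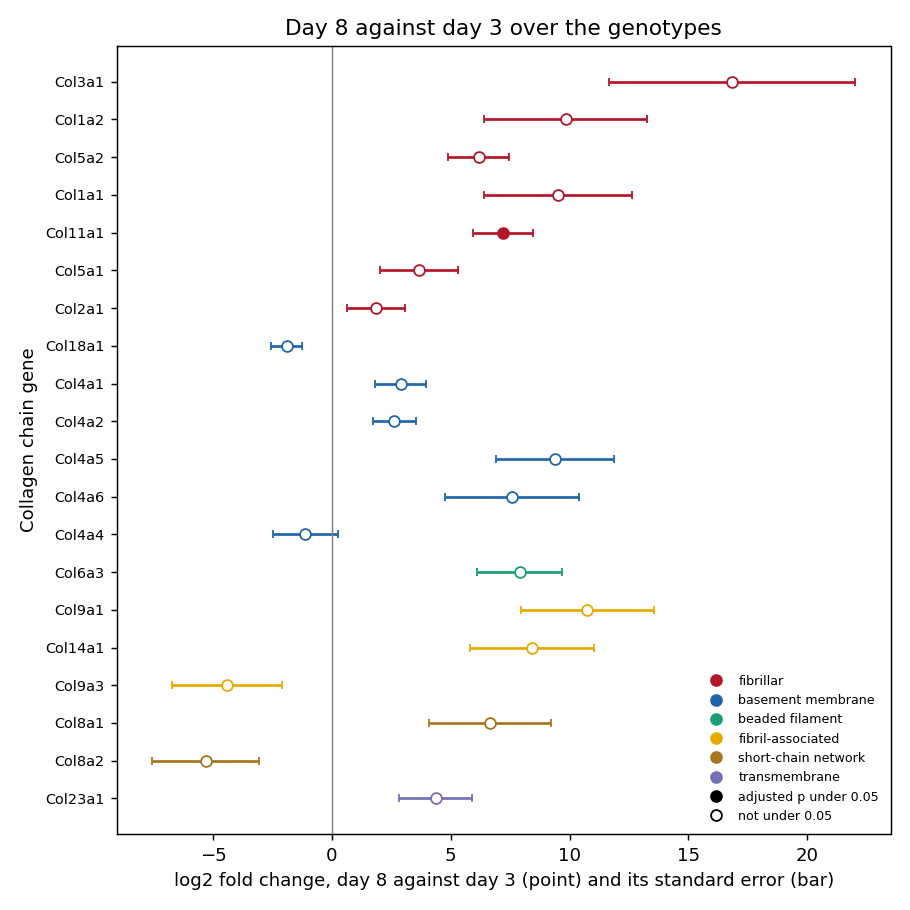
Log2 fold change (x axis) ± SE of day 8 against day 3 by edgeR, for the 20 named chains whose SE was at most 10, ordered within classes. Filled points had an adjusted p under 0.05, which only Col11a1 (7.19) had, while Col3a1 had the largest fold change (16.84) and an SE of 5.19.

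For day 6 against day 3, none of the 40 chains was called, beside 0.0374% of all genes, and 10 chains had an unadjusted p under 0.05, against 11.6% of all genes. DESeq2 called 9 chains, beside 9.18% of the genes it tested. The nearest to the threshold was Col11a1, with a log2 fold change of 4.93 (SE 1.13, adjusted p = 0.135). For day 8 against day 6 no chain was called, beside 0% of all genes, and 5 had an unadjusted p under 0.05, against 5.59% of all genes. With the clone as a block Col3a1 was called, with a log2 fold change of 8.94 (SE 0.929, adjusted p = 0.000379), beside 0.0208% of all genes. There too 3B126, without a Col3a1 read, did not count. DESeq2 called 4 chains, beside 2.1% of the genes it tested.

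3BKO and 3AKO were each compared with WT at each day. edgeR called no chain and no gene (0%) in any of these 6 contrasts. At an unadjusted p under 0.05 there was 1 of 40 chains in each of 5 contrasts and 2 of 40 chains for 3AKO at day 8. The shares of all genes at days 3, 6 and 8 were 7.62%, 1.42% and 5.66% for 3AKO, and 3.13%, 1.86% and 1.58% for 3BKO. At day 6 Col3a1 was at 0 CPM in both 3BKO clones, against 32.3 CPM in WT. Col1a1 had 0.0593 and 0.141 CPM in the 3BKO clones, against 12.2 CPM in WT, with a log2 fold change of −7.04. The median log2 fold change of the 9 fibrillar chains for 3BKO against WT was −2.46 at day 6 (2 of 9 above 0) and 0.99 at day 8 (8 of 9 above 0), beside 0.04 and 0 over all genes. At day 8 this direction rests on the library labelled 3B77. Without it and plate C344 the median was −6.17 (3 of 9 above 0), and without clone 3B77 it was −4.79 (2 of 9 above 0). Within batch 2, 3B126 had 1.55, 5.72 and 29.7 CPM of fibrillar chains at days 3, 6 and 8, against 1.11, 95.8 and 1028 CPM in WT. The WT level of day 8 was 3106 CPM on plate C343 (21 cells) but 59.1 CPM on plate C344 (68 cells), near that of 3B126. Some alternatives called chains here. DESeq2 called Col3a1 for 3BKO at day 6, beside 0.398% of the genes it tested, and so did the fit without plate C344 and the library labelled 3B77 day 8 (log2 fold change −12.72, adjusted p = 0.0302), beside 0.0127% of all genes. That fit, in which 3B126 alone stood for 3BKO at day 8, also called Col3a1 lower in 3BKO at day 8 (−18.35, adjusted p = 0.0464), beside 0.0338% of all genes. The 3BKO libraries of these contrasts had no Col3a1 read, so that both sizes depend on the prior count. At day 8 plate C343 alone stood for WT in that fit, with Col3a1 in 12 of 21 cells. Left out were plate C344, with Col3a1 in 2 of 68 cells, and the library labelled 3B77, with 25 of 40 cells. With 1 library on each side, the result at day 8 depends on which libraries were left out. No genotype difference is read from it.

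For 3AKO at day 8, which is clone 3A38 alone, Col18a1 was at 1.77 CPM, against 51.7 CPM in WT (log2 fold change −4.22, SE 1.41, adjusted p = 0.816). Col26a1, a chain first described in testis and ovary, had no read in any 3BKO library, against 0.0357, 0.882 and 2.255 CPM in WT at days 3, 6 and 8. All cells of batch 3 are 3B77 cells, and batch and clone cannot be told apart there. The change over time was also compared between each knockout and WT. No gene (0%) was called in these 4 interaction contrasts. For 3AKO at days 6 and 8 the unadjusted p was under 0.05 for 1 and 3 of 40 chains. Over all 24083 genes it was so for 1192 and 1326. For 3BKO at these days it was 2 and 1 of 40 chains, and 555 and 525 of all genes. Day 8 of 3BKO rests on 3B126 and the library labelled 3B77, at 29.7 and 3705 CPM of fibrillar chains, so no order of genotypes is read from it.

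Per cell, Col3a1 was found, with at least 1 read, in 0 of 365 cells at day 3, 20 of 348 cells (5.75%) at day 6 and 63 of 252 cells (25.0%) at day 8. After thinning each cell to 50000 reads, the shares were 0%, 4.31% and 23.8%. The intervals given next are per library and cover counting error only, since cells of a library are not replicates of a condition. PCR copies without molecular identifiers are also not independent molecules. At day 8 Col3a1 was found in 24 of 72 cells of 3A38 (33.3%, 22.7% to 45.4%), 0 of 51 cells of 3B126 (0% to 6.98%), 25 of 40 cells of the library labelled 3B77 (62.5%, 45.8% to 77.3%) and 14 of 89 cells of WT (15.7%, 8.88% to 25.0%), with exact 95% intervals. These limit the share of cells with a read, not of cells that express the gene. Of the WT cells, 12 of 21 were on plate C343 and 2 of 68 on plate C344. Clones and plates thus differed in the share of cells with Col3a1 and not only in its summed level. The median number of genes detected per cell was 3793.5 in 3A38, 3647 in the library labelled 3B77 and 3566 on plate C343, the day 8 libraries with most Col3a1, and 5638 in 3B126 and 5745 on plate C344. Its part in the shares was not tested.

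Col1a2 was found in 2.19%, 12.9% and 23.4% of cells at days 3, 6 and 8. Col18a1 ran the other way, with 91.2%, 79.9% and 51.6% of cells (72.3%, 51.2% and 40.1% when thinned). In 3A38 at day 8 it was found in 10 of 72 cells (13.9%), far fewer than the 58.8%, 65.0% and 71.9% of cells in 3B126, the library labelled 3B77 and WT. Col4a2 was found in 14.2%, 37.6% and 30.2% of cells, or 4.93%, 23.3% and 24.2% when thinned, so that the order of days 6 and 8 depended on depth. Col2a1 was found in 23 of 51 cells of 3B126 at day 8 (45.1%), 0 of 21 cells on plate C343 and 14 of 68 cells on plate C344. Col6a3 was found in 11 of 40 cells of that labelled 3B77 day 8, 5 of 21 cells on plate C343 and 0 of 68 cells on plate C344. In 3A38 and 3B126 at day 8 it was found in 1 of 72 and 2 of 51 cells.

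The median number of chains with a read per cell was 1 to 5.5 over the libraries. Cells with reads of all of Col1a1, Col1a2 and Col3a1 numbered 5 in 3A38 and 4 in WT at day 6, and 14 in 3A38, 0 in 3B126, 17 in the library labelled 3B77 and 10 in WT at day 8. There were none at day 3. Of cells with either chain of a known trimer, both were found in 62 of 135 cells (45.9%) for Col1a1 and Col1a2, 114 of 327 cells (34.9%) for Col4a1 and Col4a2, 48 of 206 cells (23.3%) for Col5a1 and Col5a2, and 19 of 94 cells (20.2%) for Col4a5 and Col4a6. For Col9a1 and Col9a3 it was 2 of 59 cells. Among the type VI chains it was 4 of 45 cells for Col6a1 and Col6a2, 7 of 39 cells for Col6a1 and Col6a3, and 5 of 52 cells for Col6a2 and Col6a3. Col1a2 and Col3a1, which form separate trimers, were found together in 63 of 132 cells (47.7%).

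A few cells carried much of the sums. At day 8, 3 cells held 61.5% of the collagen reads of 3A38, 22.5% of 3B126, 39.3% of the library labelled 3B77 and 59.3% of WT. In 3A38, 1 cell with 1866299 reads and 2005 detected genes held 11822 Col3a1 reads, 70.4% of the library's Col3a1, and reads of only 2 chains. Without this cell Col3a1 was at 117 CPM in 3A38 at day 8, against 377 CPM with it, and the fibrillar sum was at 377.6 CPM, against 627 CPM. The cell was chosen after its values were seen.

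To see which cells carried the chains, cells were clustered on genes other than collagens, and clusters were named only from fixed marker genes. Cluster 6 was mesenchyme-like by Postn, Acta2 and Hand2 among its leading genes, with 5 of the 14 mesenchyme markers counted as detected. It held 75 cells. Of these, 23 came from the library labelled 3B77 day 8, 21 from 3A38 at day 8, 14 from plate C343, 10 from WT at day 6, 6 from 3A38 at day 6 and 1 from plate C344. No day 3 cell, and no cell of 3A2, 3B126 or 3B77 at day 6, was in it. All 75 cells had a fibrillar read, and their mean fibrillar level was 3585 CPM, against 34.2 CPM in the other cells. These 75 of 965 cells held 78.1% of all fibrillar reads, 72.9% of beaded filament reads and 64.8% of fibril-associated reads, but 16.6% of basement membrane reads.

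Within cluster 6, Col1a1 was found in 76.0% of cells and Col3a1 in 85.3%, against 3.15% and 2.14% of the other cells. The cluster held 97.5% of the Col1a1 reads, 93.9% of Col1a2, 95.6% of Col6a3 and 73.0% of Col3a1. Outside it, 11822 of the 48321 Col3a1 reads came from the 1 cell of 3A38 at day 8 described above, which lay in cluster 1. In the blood-like cluster 10, Col1a2 was found in 0% of cells. Cluster 6 also held 65.8% of the Col4a6 reads and 44.3% of Col4a5, but 0.773% of Col2a1. The summed level of the 14 mesenchyme markers moved with the fibrillar chains, at 238 CPM in 3A38, 66.7 CPM in 3B126, 2210 CPM in the library labelled 3B77 and 692 CPM in WT at day 8 (2028 CPM on plate C343 and 69.1 CPM on plate C344), against 1.53 to 13.4 CPM at day 3. Blood markers were also highest on plate C343 (50550 CPM) and in the library labelled 3B77 day 8 (32990 CPM). Their part in the collagen levels was not tested.

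The type IV chains lay in part in other cells. In cluster 11, endothelium-like by Emcn, Cdh5 and Esam, with 27 cells, Col4a1 was found in 88.9%, Col4a2 in 96.3% and Col18a1 in 100% of cells, at means of 131, 135 and 172 CPM. With coarser clusters (resolution 0.4 in place of 0.8), the cluster with most Cdh5 held 97 cells, of which 52.6%, 66.0% and 73.2% had a read of these chains, at means of 50.9, 52.1 and 70.0 CPM. In that coarser cluster 4 of the 11 endothelium markers were counted as detected. In cluster 11 the mean fibrillar level was 74.8 CPM, and the mean basement membrane level 463 CPM. The coarser cluster had 186 CPM of basement membrane chains, below the 201.9 CPM of the mesenchyme-like cells. The 27 cells of cluster 11 held 33.9% of the Col4a1 reads and 31.2% of the Col4a2 reads, and 2 of them held 98.1% of Col15a1. Col2a1 was highest in cluster 4, neural progenitor-like by Crabp1, Crabp2 and Fabp7, where it was found in 58.8% of cells at a mean of 30.6 CPM. Neural progenitor markers summed to 1853 CPM in 3A38, 8836 CPM in 3B126, 19.9 CPM in the library labelled 3B77 and 5945 CPM in WT at day 8 (14.5 CPM on plate C343 and 8711 CPM on plate C344). Col2a1 led Col3a1 in 3B126 and on plate C344, but 3A38 had only 0.494 CPM of Col2a1. Of its 72 cells, 26 were in the neural progenitor-like cluster at resolution 0.4, and 15.4% of those had a Col2a1 read, at a mean of 3.64 CPM, against 63.0% at 37.6 CPM in 3B126. That cluster had 7 of the 12 neural progenitor markers counted as detected. At resolution 0.8, 21 of the 72 cells of 3A38 lay in cluster 8, where 14.3% had a Col2a1 read at a mean of 1.82 CPM. In 3B126, 18 cells lay in cluster 4, with 72.2% at 48.6 CPM. The cells compared at resolution 0.4 may thus not be of like type. Clusters describe these cells, and no test of a cluster against the rest was made.

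**Figure D5:**
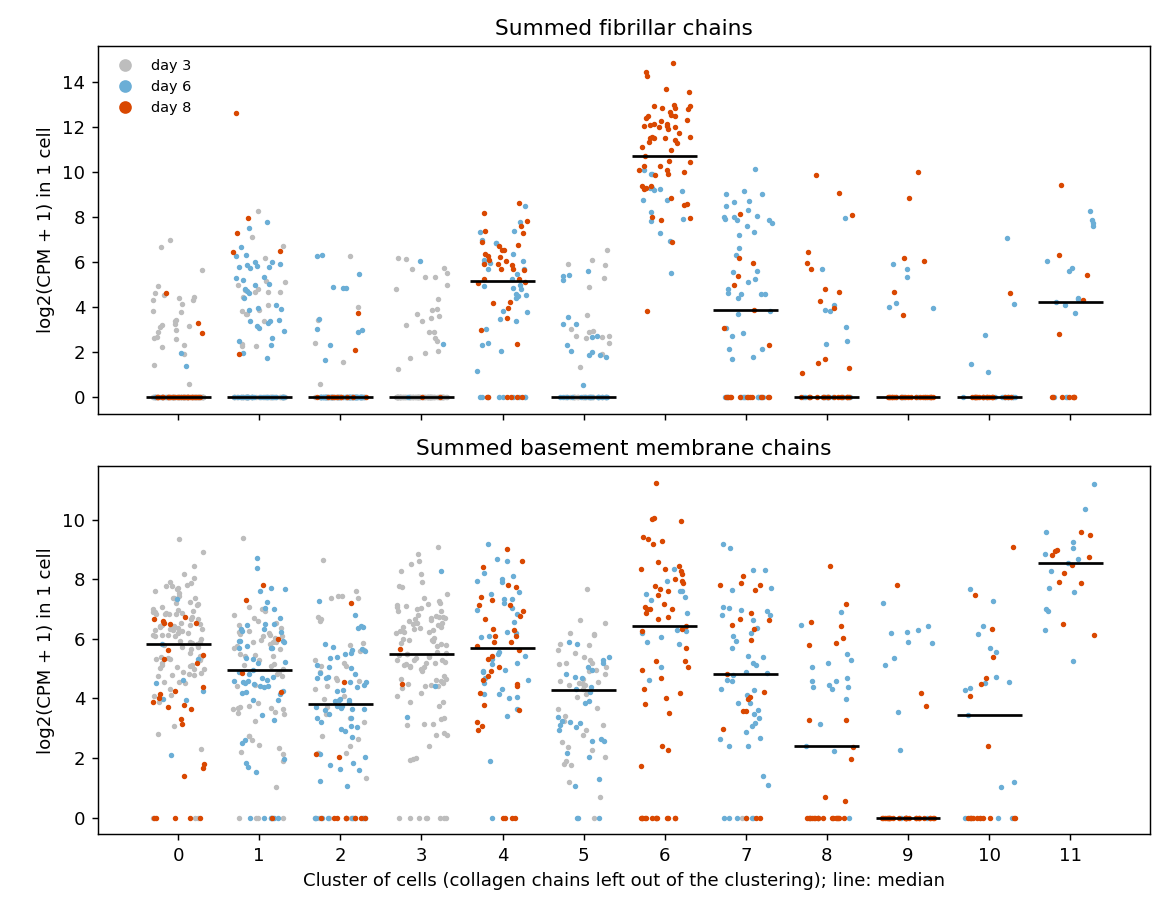
Log2(CPM + 1) per cell of the fibrillar chains and of the basement membrane chains (y axes) in the 12 clusters, numbered 0 to 11 (x axis), 1 point per cell coloured by day, with the median as a line. The 75 cells of cluster 6 all lie above 0 in fibrillar level, and the 27 cells of cluster 11 have the highest basement membrane mean at this resolution (463 CPM).

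Genes that make and use collagen were counted by list, beside the 0.822% of all genes called for day 8 against day 3. Of the 20 genes of chain modification and folding, 1 was called for day 8 against day 3. It was P4ha1, a catalytic subunit of the prolyl hydroxylase that stabilises the helix, with a log2 fold change of 3.14 (SE 0.679, adjusted p = 0.0454). The call was lost without plate C344 and the library labelled 3B77 day 8 (2.28, adjusted p = 0.0577). P4ha1 had 18.1 and 7.63 CPM in the 3AKO clones, 1.64 and 11.03 CPM in the 3BKO clones, and 4.53 CPM in WT at day 3. The day 8 levels were 30.4, 48.1, 255 and 88.0 CPM in 3A38, 3B126, the library labelled 3B77 and WT, and lay above all those of day 3. Serpinh1, the collagen chaperone of the endoplasmic reticulum, had a log2 fold change of 1.98 (SE 0.704, adjusted p = 0.173). None of 13 tested genes of propeptide cleavage and cross-linking was called, with Loxl2, a cross-linking oxidase, nearest at 5.96 (SE 1.39, adjusted p = 0.0606). None of 9 receptors was called, where Ddr2, a receptor for fibrillar collagen, was at 7.02 (SE 2.64, adjusted p = 0.229). None of 12 other basement membrane proteins was called, with the laminin chains Lama2 at 7.80 (SE 1.83, adjusted p = 0.0619) and Lama5 at −2.99 (SE 0.862, adjusted p = 0.105). Without plate C344 and the library labelled 3B77 day 8, where 3.36% of all genes were called, Loxl2 (adjusted p = 0.0324), Lama2 (adjusted p = 0.0280) and Lama5 (adjusted p = 0.0477) passed the threshold.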

How the data were processed

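Single live cells were sorted into plates, copied as full-length cDNA by a Smart-seq2 variant that has no molecular identifiers, and read as 75 bp single ends. The deposited values are raw read counts per gene and cell. Per the study's methods and the submitters' processing notes, the authors made them with FastQC 0.11.2, Trim Galore 0.5.0, STAR 2.7.1a (mm10/GRCm38) and featureCounts 1.6.1 (exons, by gene name, without reads mapping to several places). No source used here states whether strand was used. An antisense gene's reads may be counted with the chain's. The deposited cells are those the authors retained, with at least 50000 reads and 2000 genes and at most 50% mitochondrial reads, and no column lacked a sample. No doublet caller was run on these sorted wells.

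Counts were summed per clone and day (14 libraries, 9810248 to 44529830 reads), since cells are not replicates. edgeR 4.0.16 in R 4.3.3 (filterByExpr, TMM factors, glmQLFit with robust estimation, glmQLFTest) was fitted to 9 genotype-by-day means over 24083 genes, with 5 residual degrees of freedom, and p-values were adjusted over all of them by Benjamini-Hochberg with a threshold of 0.05. In a contrast of days, the 3 genotypes had equal weight. SE is the log2 fold change divided by the root of F. Printed levels are CPM by library total without TMM factors. The same clone at several days is the same cell line, so the clone pairs the libraries. A fit with the clone as a block leaves fewer residual degrees of freedom. A clone without a read of a gene does not count in that fit. Deviations from group means of the same clone correlated by 0.155 for 3A2 (days 3 and 6) and by 0.0615, 0.0295 and −0.000719 for 3B126, the clones for which this could be computed.

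The chains named were those called, all tested fibrillar and basement membrane chains, the 10 others of highest mean CPM, and, per list of related genes, those called or among the 4 of smallest p. Members and lists were chosen with earlier results of these data known. Clusters came from Seurat 5.3.0 (resolution 0.8, batches integrated, collagens left out). Exons, lengths and coding sequence were read from GENCODE M21 (GRCm38), since protein sequences were not used here. The statistics were tested on simulated data. Of 100 genes changed 8-fold 67 were called, as were all 100 changed 64-fold, with 3 false calls. The changed genes were picked above a minimum level that most chains did not reach, so power for low chains was not tested. Alternatives were other size factors, DESeq2 1.42.0, no filter, limma 3.58.1 on mean CPM, a clone block, and leaving out cells, libraries or clones. Library totals alone, leaving out 1 cell of 3A38 day 8, and the bounds of Col3a1 without doubted libraries were chosen after seeing the data.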

Additional observations from a re-analysis of the deposited data

Results flagged for a closer look

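Of 98 day-wise groups of 4 or 5 libraries, over 34 items, 17 held a library that lay far from the others. A rate of about 1 in 20 holds for independent values of normal spread, which these were not. A library with the only reads of its group is always flagged, and class sums share reads with their chains. The count is thus not set against chance. Most flags were of low chains. In 3A38 at day 3, Col1a2 was at 2.68 CPM (next highest 0.344 CPM), Col24a1 at 0.498 CPM, Col4a3 at 0.387 CPM, Col4a5 at 0.359 CPM, Col4a6 at 0.166 CPM and Col15a1 at 0.0553 CPM. In 3A2, Col13a1 stood out at day 3 (3.06 CPM) and Col8a1 at day 6 (0.0872 CPM). In 3B77 at day 3, Col14a1 was at 0.534 CPM.

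At day 6 the short-chain network chains of 3B126 summed to 3.68 CPM (next highest 0.235 CPM), and Col15a1 of 3A38 was at 4.19 CPM from 1 cell. At day 8 the library labelled 3B77 stood out in the short-chain network sum (21.4 CPM, next highest 0.270 CPM), Col8a1 (15.2 CPM), Col8a2 (6.22 CPM) and Col15a1 (3.06 CPM). Col24a1 stood out in 3B126 at day 8 (0.557 CPM) and Col9a3 in 3A38 at day 8 (4.72 CPM, with no read in the others).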

How the results depend on the processing

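For day 8 against day 3, 3 of 40 chains were called with library totals alone (1.9% of all genes), 16 of 26 by DESeq2 (17.6%), 13 of 44 without a filter (4.36%), 3 of 40 by limma on mean CPM (3.13%), 5 of 40 with a replicate block for the clone (1.64%), and 3 of 38 when plate C344 and the library labelled 3B77 day 8 were left out (3.36%), against 1 of 40 in the main analysis (0.822%). Leaving out 1 clone at a time gave 1 to 11 chains, the most without 3A2 (4.49% of all genes). For day 6 against day 3, DESeq2 called 9 chains (9.18% of all genes it tested) and no filter 8 (2.27%). Leaving out a clone gave 0 to 8. For day 8 against day 6, DESeq2 called 4 (2.1%), no filter 5 (0.561%), limma 1 (1.19%) and the block 1 (0.0208%). Leaving out a clone gave 0 to 5 there. The highest counts were again those without 3A2 (2.37% and 0.538% of all genes). For 3BKO against WT, DESeq2 called 1 chain at day 3 (1.29%) and 1 at day 6 (0.398%). No filter called 3 at day 6 (Col1a1, Col1a2 and Col3a1, beside 0.205%) and limma 1 at day 8 (Col19a1, beside 0.536%). The fit without the doubted libraries called 1 at day 6 (0.0127%). Leaving out a clone gave 0 to 3 at day 6, the 3 without 3A2 (0.226%). For 3AKO against WT, DESeq2 called 1 at day 3 (5.05%). The cause was not tested. In the other genotype contrasts leaving out a clone gave 0 in each case. WT contrasts without WT, and 3AKO at day 8 without 3A38, give no value.

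Col11a1 at day 8 against day 3 was called in 13 of 13 alternatives, with a log2 fold change of 3.83 to 7.91. Of the 40 chains, 11 changed sign in at least 1 alternative, none of them called in that alternative. Among the fibrillar and basement membrane chains, Col2a1 (−1.26) and Col15a1 (−0.94) turned without the doubted libraries, Col24a1 (−0.21) and Col4a3 (−0.36) with the block, and Col27a1 (0.043) and Col4a3 (−0.15) by limma. Leaving out a clone gave −0.96 to 3.95 for Col15a1, −2.01 to 1.63 for Col24a1, −0.98 to 1.81 for Col4a3, −1.12 to 0.89 for Col27a1 and −2.74 to 0.59 for Col4a4. Without the doubted libraries the median of all genes was −0.59, against −0.01 with them, so that changes are to be read relative to it. With library totals alone it was 0.21. The rise of the class ratio was 5.57 to 6.78 without 1 clone and 3.24 with type IV chains alone. The fibrillar level of 3A38 at day 8 was 377.6 CPM without its highest cell. The share of day 8 cells with Col4a2 was 24.2% when thinned and 24.2% with at least 3 reads, and with Col18a1 40.1% and 37.3%. P4ha1 lost its call by limma (adjusted p = 0.0638) and without WT (0.0809), and the block called Loxl2 (0.0144) and Lama2 (0.0481). Apart from these and the block values given with the results, pairing changed no call. Chains near 1 CPM rest on few reads and cells, which limits any statement on them.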
